A study of Mus musculus with 8 samples.

Results

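The genes described here were 8 genes of nitric oxide (NO) and cyclic GMP (cGMP) signalling, taken by name from the 39056 genes of the count table. They were the NO synthases Nos1, Nos2 and Nos3, the Nos1 adaptor Nos1ap, the soluble guanylyl cyclase subunits Gucy1a1 and Gucy1b1, the cGMP-dependent kinase Prkg1 and the cGMP phosphodiesterase Pde5a. Nos1 was chosen because its counts were low in Hv1 null hearts, so its difference between the genotypes is given as a description and was not tested. The study compared RNA from the hearts of 4 Hv1 null mice, in which the gene of the voltage-gated proton channel HVCN1 (Hv1, gene Hvcn1) was knocked out, with that of 4 wild-type (WT) mice on the C57BL/6 background, to ask what the channel does in the heart. All mice were male and 3 months old, each heart gave 1 library, and no further treatment is given. The labels give a knockout of the gene and name no tissue-specific driver. How the null line was made is not given in the sources used here, which do not make clear whether the background named with the WT mice also holds for it, and the labels name the tissue only as heart. Hearts are numbered 1 to 4 in the Hv1 null group and 5 to 8 in the WT group, and the numbers pair no hearts.

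NO synthases make NO from arginine, with tetrahydrobiopterin as a cofactor. Nos1, the neuronal form, is also made by cardiomyocytes and skeletal muscle fibres, Nos3 is the endothelial form, and Nos2 is the form induced in inflammation. NO activates soluble guanylyl cyclase, a heterodimer of an alpha and a beta subunit, and the cGMP that it makes activates cGMP-dependent protein kinase, relaxes vascular smooth muscle and is broken down by phosphodiesterases.

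Total counts were 25851255 to 36396297 in Hv1 null hearts and 32595114 to 38874640 in WT hearts. Values are CPM, that is, counts per 1000000 counts of the library after TMM scaling (edgeR), and differences were tested with edgeR's quasi-likelihood test on 14796 genes, of which 169 (1.14%) were differentially expressed genes (DEGs) at an adjusted p under 0.05. Of all tested genes, 0.743% were DEGs that were higher and 0.399% DEGs that were lower in Hv1 null hearts. Hvcn1, the targeted gene, gave 0.0380 to 0.180 CPM in Hv1 null and 1.51 to 2.62 CPM in WT hearts, which on the log2 scale was a fold change of -4.20 (edgeR, with a standard error (SE) of 0.38 and an adjusted p = 3.63e-04). All 8 cardiomyocyte markers were above 1 CPM in every heart, with summed levels of 56052 to 71042 CPM in Hv1 null and 59983 to 71693 CPM in WT hearts. The sums of fibroblast, neutrophil and erythroid markers overlapped between the genotypes, and these lists held no DEG. Fold changes were above 0 for 1 of 6 fibroblast, 0 of 4 tested neutrophil and 0 of 4 erythroid markers. Their medians on the log2 scale were -0.14, -0.55 and -0.99. The hearts differed in atrial markers. The sum of Myl7, Myl4, Sln, Bmp10 and Kcnj3 was 1431 to 3779 CPM in Hv1 null hearts 2 and 3 and WT hearts 5 and 7, and 62.3 to 165 CPM in the other 4 hearts, which again were 2 of each genotype. These are called the hearts with higher and with lower atrial markers, and the values of the 8 genes are given within them where they differed. In the lower set the sum was 109 and 165 CPM in Hv1 null hearts 1 and 4. It was 62.3 and 87.3 CPM in WT hearts 6 and 8. Fold changes between the genotypes within the lower set therefore do not hold the atrial marker level fixed.

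Nos1 was the lowest of the 8 genes per length of transcript in either genotype, and its counts were lower in each Hv1 null heart than in any WT heart. Nos1 (ENSMUSG00000029361) lies on the plus strand of chromosome 5, 117781032 to 117958840 in GRCm38, with 7 annotated transcripts. It gave 1, 10, 4 and 5 counts in Hv1 null hearts 1 to 4 and 56, 36, 72 and 37 counts in WT hearts 5 to 8. In CPM the Hv1 null hearts were at 0.0300, 0.268, 0.152 and 0.141. The WT hearts were at 1.42, 1.11, 1.90 and 1.25 CPM, so the groups did not overlap. Among all tested genes the groups did not overlap for 7.06%, with 3.60% higher and 3.45% lower in Hv1 null hearts. Hv1 null hearts had a mean of 0.148 ± 0.0971 CPM and WT hearts one of 1.42 ± 0.346 CPM (SD, n = 4 each), which put the Hv1 null mean at 10.4% of the WT mean. Over all hearts the 20 counts against 201 gave a ratio of 0.105. No interval is given for it, as Nos1 was chosen for this contrast and the ratio pools the hearts. The fitted log2 fold change was -3.22, and it ranged from -3.70 to -2.88 over 15 alternatives of scaling, filter, test and hearts. These alternatives refit the values for which Nos1 was chosen, so their range is a description and does not test the difference. None of the Hv1 null hearts and all 4 WT hearts lay above the minimum level of the filter, so Nos1 passed the filter only through its level in WT hearts. The other 7 genes lay above that level in all 8 hearts.

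**Figure D1:**
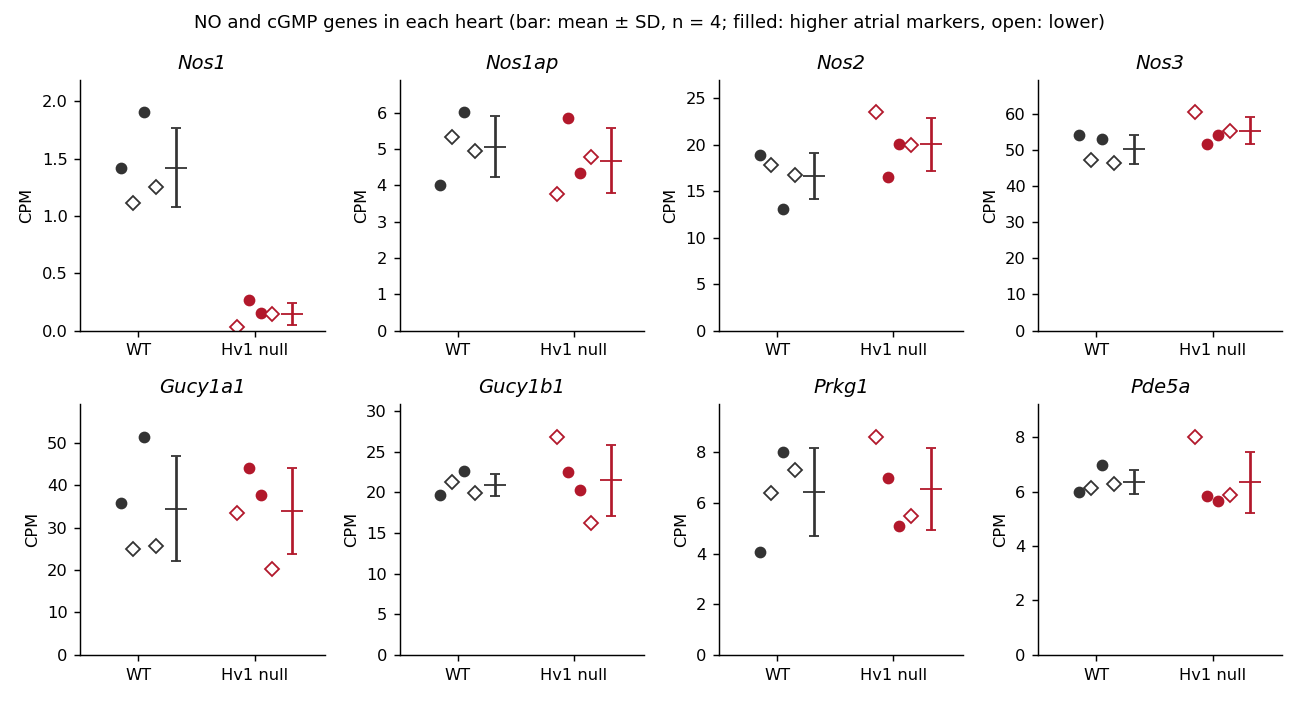
CPM of the 8 genes in each heart, with 1 panel per gene, WT hearts in grey, Hv1 null hearts in red, and the bar at the mean ± SD of 4 hearts. Filled circles are the 4 hearts with higher and open diamonds the 4 with lower atrial markers. For Nos1 the Hv1 null hearts sit at 0.0300 to 0.268 CPM and the WT hearts at 1.11 to 1.90 CPM, while in the other 7 panels the genotypes overlap.

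Within each genotype the CPM of Nos1 was higher in the hearts with higher atrial markers, sets that were formed after values were seen. These hearts held 0.152 and 0.268 CPM among Hv1 null hearts, against 0.0300 and 0.141 CPM in the pair with lower markers. The Hv1 null values rest on 4 and 10 counts against 1 and 5, so hearts 3 and 4 are ordered only by library size. Among WT hearts the values were 1.42 and 1.90 CPM against 1.11 and 1.25 CPM. The pattern was not tested, and the share of all tested genes with such a split is not given here. The log2 fold change between the genotypes was -2.93 in the hearts with higher and -3.69 in those with lower atrial markers, and -3.37 with the atrial marker level as a covariate. In whole hearts, fewer cells of a type and less RNA per cell cannot be told apart. Other sources of Nos1 transcripts were looked at through their markers. Of the 12 nerve and glia markers, 7 were under 1 CPM in every heart and Chat, which defines cholinergic neurons, was at 0, and their sum was 16.6 to 23.6 CPM in Hv1 null and 8.88 to 17.1 CPM in WT hearts. Of the 8 skeletal muscle markers, 5 were under 1 CPM in every heart, and the sum was 1.41 to 3.59 CPM in Hv1 null and 2.53 to 5.71 CPM in WT hearts. All 5 tested nerve and glia markers had a fold change above 0, with a median of 0.62 on the log2 scale, and none was a DEG. Of the 4 tested skeletal muscle markers, 1 had a fold change above 0 and none was a DEG. The sums overlapped between the genotypes in both lists, and their part in the Nos1 difference was not tested. Within each genotype the nerve and glia sum was also higher in the hearts with higher atrial markers. In Hv1 null hearts it was 23.6 and 18.1 CPM against 17.3 and 16.6 CPM. In WT hearts it was 14.7 and 17.1 CPM against 9.36 and 8.88 CPM. The skeletal muscle sum was split this way in WT hearts only.

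RefSeq lists a start of Nos1 for which the promoter window, 250 bases before to 50 bases after the start, is shown here because of the 8 genes Nos1 alone had groups that did not overlap. It covers chr5:117866589-117866888 on the plus strand of GRCm38.p6, with CG dinucleotides in capitals:

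Nos1: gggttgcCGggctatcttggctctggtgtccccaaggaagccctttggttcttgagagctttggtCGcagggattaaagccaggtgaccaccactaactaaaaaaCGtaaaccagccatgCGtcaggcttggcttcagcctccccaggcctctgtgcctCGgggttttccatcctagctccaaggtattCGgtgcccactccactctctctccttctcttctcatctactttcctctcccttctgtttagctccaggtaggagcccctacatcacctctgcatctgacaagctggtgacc

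The RefSeq start, at 117866839, lay inside the gene as annotated (117781032 to 117958840). The window is therefore that of an internal start and not of the first annotated start of Nos1. The RefSeq start lay 275 bases from the nearest transcript start of the annotation used for the counts' gene names, and counts per gene do not tell which start was used. The window held 6 CG dinucleotides, where the median of 32841 RefSeq promoter windows was 7, and 54.7% of its bases were G or C. On both strands it held no CCAAT, no GGGCGG (the GC box) and no TATAAA, which 37.4%, 35.7% and 13.6% of all windows hold. Of the 8 genes, 6 were matched in this table, and Nos2 and Nos3 were not.

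Nos1 lies on the chromosome of the targeted gene, ending 4.25 Mb before the start of Hvcn1 (122206804 to 122242297). Among the 45 tested genes between Nos1 and Hvcn1, none was a DEG, 7 (15.6%) had an unadjusted p under 0.05 in edgeR's quasi-likelihood test against 11.0% of all tested genes, and the count of DEGs was 0 with edgeR's likelihood ratio test, 0 with voom and 1, Tesc, with DESeq2. Within 10 Mb of Hvcn1, leaving out Hvcn1 and Nos1, 4 of 217 tested genes were DEGs (1.84%, against 1.14% of all tested genes). Ift81, of the intraflagellar transport complex, was higher in Hv1 null hearts by 1.06 on the log2 scale (SE 0.14) and was a DEG in each of 15 alternatives. The lysosomal transporter gene Slc15a4 (0.52) and Diablo (-0.48), which encodes a mitochondrial protein that promotes apoptosis, were DEGs in 8 of the 15, and lost the call without any of 7 hearts (each but Hv1 null heart 2 for Slc15a4 and WT heart 7 for Diablo). The share of DEGs was 2.59% of 116 genes within 5 Mb and 1.4% of 429 within 20 Mb. The loss of Hvcn1 and any other DNA that differs between the 2 mouse lines around it cannot be told apart here.

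**Figure D2:**
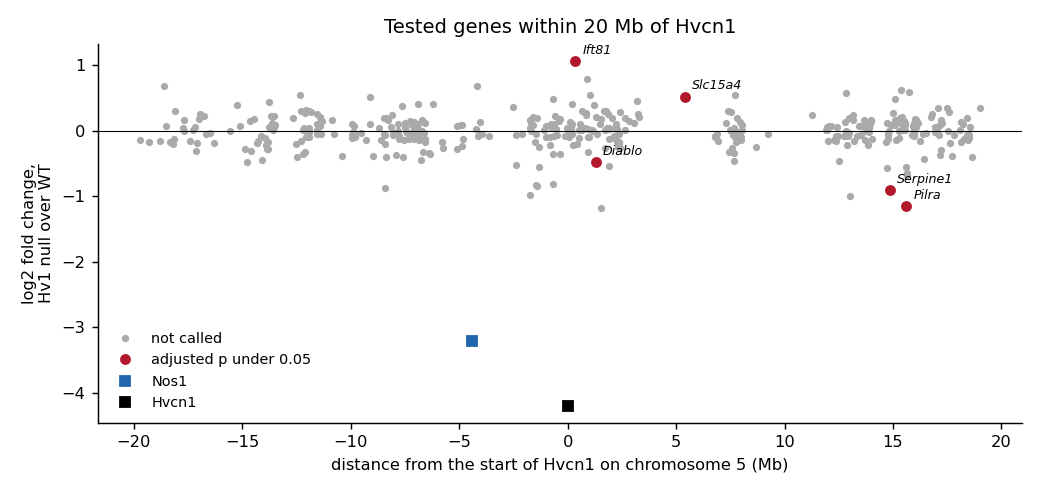
Log2 fold change (Hv1 null over WT) of the tested genes within 20 Mb of Hvcn1 on chromosome 5, against the distance of their starts from the start of Hvcn1 in Mb. Red points are DEGs, grey points the other genes, the blue square is Nos1 at -3.22 and the black square Hvcn1 at -4.20. The grey points between the squares run from -0.99 to 0.67 with a median of -0.04, and those beyond scatter on both sides of 0. Ift81, at 1.06, is the highest of the red points, and 1 DEG is not drawn.

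For the 7 other genes no difference between the genotypes beyond the spread of the hearts was found. None of them was a DEG, where 1.14% of all tested genes were, and 0 of the 7 had an unadjusted edgeR p under 0.05, where 11.0% of all tested genes did. The same count of 0 DEGs was found with edgeR's likelihood ratio test, DESeq2 and voom, and with any heart left out. The fold changes of 5 of the 7 were above 0 and their median was 0.03, against -0.01 over all tested genes. All 7 overlapped between the genotypes.

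Nos3 (ENSMUSG00000028978, chromosome 5, 24364810 to 24384474), the synthase of endothelial cells, was at 60.5, 51.6, 54.1 and 55.4 CPM in Hv1 null hearts and 54.1, 47.3, 53.1 and 46.5 CPM in WT hearts. The highest value was in Hv1 null heart 1 and the lowest were in WT hearts 6 and 8. The means were 55.4 ± 3.72 and 50.2 ± 3.92 CPM (SD, n = 4 each), with a log2 fold change of 0.14 (SE 0.09, edgeR adjusted p = 0.665). The 95% interval of the difference ran from -0.05 to 0.34. In the hearts with higher atrial markers the difference was -0.03 on the log2 scale and in those with lower markers 0.32. The endothelial markers summed to 1091 to 1288 CPM in Hv1 null and 1135 to 1334 CPM in WT hearts, with none of 10 a DEG. Atg9b, which overlaps Nos3 on the other strand, had 34 to 69 counts per heart. As the strand setting of the counting is not given, its reads and those of Nos3 may not have been kept apart.

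Nos2 (ENSMUSG00000020826, chromosome 11, 78920787 to 78960254), the inducible synthase, was at 23.4, 16.5, 20.1 and 19.98 CPM in Hv1 null hearts. In WT hearts it was at 18.9, 17.8, 13.1 and 16.7 CPM. WT heart 7 was the lowest of the 8 hearts and Hv1 null heart 1 the highest, while Hv1 null heart 2 lay below 3 of the WT hearts. The log2 fold change was 0.27 (SE 0.14, edgeR adjusted p = 0.535), with an interval from -0.03 to 0.57. Of the markers of macrophages, which make Nos2 when activated, 0 of 8 had a fold change above 0 and none was a DEG, with sums of 173 to 222 CPM in Hv1 null and 194 to 279 CPM in WT hearts. Their part in the Nos2 values was not tested.

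Nos1ap (ENSMUSG00000038473, chromosome 1, 170302668 to 170589861) encodes the adaptor that binds Nos1, and its locus is known for its link to the QT interval. It was at 3.75, 5.86, 4.33 and 4.78 CPM in Hv1 null hearts and 4.00, 5.32, 6.004 and 4.93 CPM in WT hearts. Each genotype had a heart near the bottom and one near the top of the range. The log2 fold change was -0.11 (SE 0.18, edgeR adjusted p = 0.912), with an interval from -0.50 to 0.28. A gene model that overlaps Nos1ap on the same strand, Gm7694, had 359 to 503 counts per heart, and reads in shared sequence may have been lost to both or given to either.

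Compared per length, as CPM per kb of merged exons, Nos3 held most of the NO synthase transcripts in either genotype. It made up 75.7% ± 3.17 of the 3 synthases in WT hearts and 74.8% ± 1.48 in Hv1 null hearts (SD, n = 4 each). Nos2 made up 23.5% ± 3.35 in WT and 25.2% ± 1.53 in Hv1 null hearts. The share of Nos1 was 0.640% to 1.07% in WT hearts and 0.0135% to 0.147% in Hv1 null hearts. The 3 together summed to 16.1 ± 1.02 in WT and 17.96 ± 1.52 in Hv1 null hearts, so the difference in Nos1 was small beside the spread of the sum.

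On the same scale per length, the order of the 8 genes in WT hearts was Nos3 (12.2 ± 0.950), Gucy1b1 (5.32 ± 0.343), Gucy1a1 (4.95 ± 1.76), Nos2 (3.77 ± 0.572), Nos1ap (0.698 ± 0.115), Pde5a (0.645 ± 0.0448), Prkg1 (0.593 ± 0.159) and Nos1 (0.127 ± 0.0310; SD, n = 4 each). Nos3 stood above Gucy1b1, Nos2 above Nos1ap and Prkg1 above Nos1 with no overlap. The remaining neighbours overlapped and are not separated by these hearts. In Hv1 null hearts the order was the same but for Nos1ap and Pde5a, which were both at 0.646, and Nos1 was at 0.0132 ± 0.00870. With the longest transcript of each gene as its length, Gucy1a1 came before Gucy1b1 and Prkg1 before Pde5a in WT hearts, and 4 of the 8 genes kept their place.

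**Figure D3:**
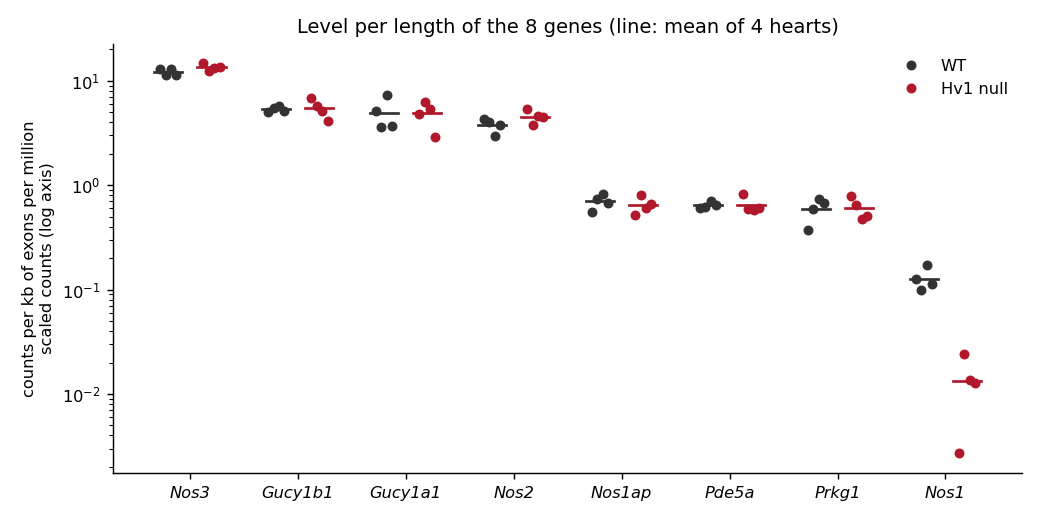
Levels of the 8 genes per length, in CPM per kb of merged exons on a log axis, in WT (grey) and Hv1 null (red) hearts, with a line at the mean of 4 hearts. Nos3 lies highest in both genotypes, at means of 12.2 and 13.4, and Nos1 lowest, at 0.127 and 0.0132.

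For soluble guanylyl cyclase, the receptor of NO, no difference between the genotypes was detected in either subunit, and the alpha subunit varied widely between hearts. Gucy1a1 (ENSMUSG00000033910, chromosome 3, 82092427 to 82145789), which encodes the alpha subunit, was at 33.5, 43.9, 37.7 and 20.2 CPM in Hv1 null hearts. In WT hearts it was at 35.8, 25.0, 51.4 and 25.7 CPM, so either genotype spanned a wide range. The means were 33.8 ± 10.1 and 34.5 ± 12.3 CPM (SD, n = 4 each), with a log2 fold change of -0.03 (SE 0.27, edgeR adjusted p = 0.993) and an interval from -0.62 to 0.56. Gucy1b1 (ENSMUSG00000028005, chromosome 3, 82032006 to 82074689), which encodes the beta subunit that binds the haem, was at 26.8, 22.5, 20.3 and 16.2 CPM in Hv1 null hearts. The WT hearts lay closer together, at 19.6, 21.3, 22.6 and 19.99 CPM. The log2 fold change was 0.04 (SE 0.14, edgeR adjusted p = 0.970) with an interval from -0.26 to 0.34.

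Both genes are read from the minus strand of chromosome 3. The promoter windows of both subunits are shown here because the 2 proteins work as 1 enzyme while their transcripts varied differently between hearts. For Gucy1a1 the window was chr3:82145601-82145900 and for Gucy1b1 chr3:82074662-82074961 (RefSeq, GRCm38.p6, minus strand, 5′ to 3′, CG dinucleotides in capitals):

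Gucy1a1: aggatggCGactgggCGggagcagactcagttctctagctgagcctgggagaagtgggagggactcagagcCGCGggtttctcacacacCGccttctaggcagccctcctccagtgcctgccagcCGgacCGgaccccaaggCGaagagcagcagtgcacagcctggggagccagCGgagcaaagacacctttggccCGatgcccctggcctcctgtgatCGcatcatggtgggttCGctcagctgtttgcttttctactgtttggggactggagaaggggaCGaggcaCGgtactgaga

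Gucy1b1: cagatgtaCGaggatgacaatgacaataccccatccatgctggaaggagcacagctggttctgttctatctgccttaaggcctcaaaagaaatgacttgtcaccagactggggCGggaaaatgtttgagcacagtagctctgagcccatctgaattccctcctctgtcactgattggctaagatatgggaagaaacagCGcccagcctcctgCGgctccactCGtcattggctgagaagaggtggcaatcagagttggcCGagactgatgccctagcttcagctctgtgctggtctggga

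The Gucy1a1 window held 14 CG dinucleotides and 62.3% G or C, and the Gucy1b1 window 6 CG dinucleotides and 52.3% G or C. Each held 1 GGGCGG on one strand or the other. Gucy1b1 held 2 CCAAT and Gucy1a1 none, and neither held TATAAA. Gucy1a1 has a further RefSeq start, which was not printed.

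The ratio of Gucy1a1 to Gucy1b1 per length was 0.704, 1.10, 1.05 and 0.701 in Hv1 null hearts and 1.03, 0.662, 1.28 and 0.725 in WT hearts. Its log2 mean differed by -0.04 between the genotypes (two-sided exact permutation test over 70 assignments, p = 0.886, n = 4 and 4). The ratio was 1.03 to 1.28 in the 4 hearts with higher atrial markers and 0.662 to 0.725 in the 4 with lower ones, with no heart in between. Of the subunits, Gucy1a1 was at 35.8 to 51.4 CPM in the former and 20.2 to 33.5 CPM in the latter. Gucy1b1 was at 19.6 to 22.6 and 16.2 to 26.8 CPM, and these values overlapped. These sets of hearts were formed from the data after values were seen and the pattern was not tested. The share of all tested genes that separate these sets without overlap is not given here. The pericyte markers, a cell type in which both subunits are abundant, summed to 813 to 1018 CPM in the hearts with higher and 747 to 1191 CPM in those with lower atrial markers.

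**Figure D4:**
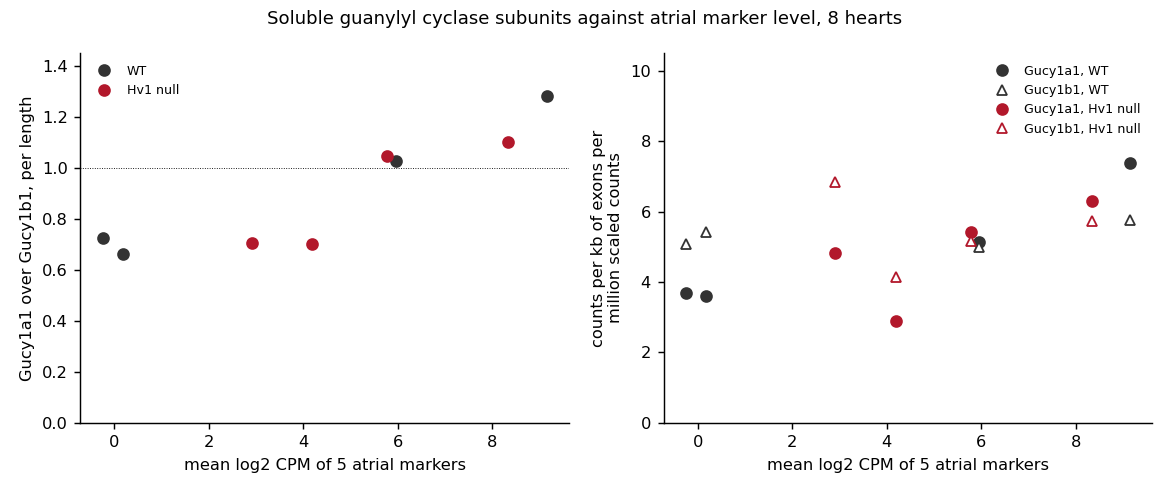
Ratio of Gucy1a1 to Gucy1b1 per length (left) and the level of each subunit in CPM per kb of merged exons (right) in each of the 8 hearts, against the mean log2 CPM of the 5 atrial markers, with WT hearts in grey and Hv1 null hearts in red. The 4 hearts with higher atrial markers have ratios of 1.03 to 1.28 and the other 4 ratios of 0.662 to 0.725, in both genotypes.

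Prkg1 (ENSMUSG00000052920, chromosome 19, 30564489 to 31765033), the cGMP-dependent kinase of smooth muscle and cardiomyocytes, was at 8.62, 7.01, 5.09 and 5.48 CPM in Hv1 null hearts and 4.05, 6.40, 8.01 and 7.29 CPM in WT hearts. The lowest of all hearts was WT heart 5 and the highest Hv1 null heart 1. The log2 fold change was 0.03 (SE 0.23, edgeR adjusted p = 0.990) with an interval from -0.48 to 0.54. Cstf2t, which lies inside Prkg1 on the other strand, had 644 to 957 counts per heart. If strand was not used in counting, reads in any exon sequence common to both may not have been kept apart.

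Pde5a (ENSMUSG00000053965, chromosome 3, 122728947 to 122859374), the phosphodiesterase that sildenafil inhibits, was at 8.02, 5.83, 5.66 and 5.88 CPM in Hv1 null hearts and 5.997, 6.12, 6.98 and 6.28 CPM in WT hearts. Hv1 null heart 1 stood above the rest, and the other 3 Hv1 null hearts lay below all WT hearts. The means were 6.35 ± 1.12 and 6.34 ± 0.441 CPM (SD, n = 4 each), with a log2 fold change of 0.00 (SE 0.14, edgeR adjusted p = 0.999) and an interval from -0.31 to 0.31. Without Hv1 null heart 1 the log2 fold change was -0.13, the lowest with any heart left out. Smooth muscle markers, of cells in which Prkg1 and Pde5a are abundant, had fold changes above 0 for 6 of 6, with 1 DEG, Acta2, and sums of 534 to 834 CPM against 405 to 493 CPM that did not overlap. Neither Prkg1 nor Pde5a was a DEG beside this, and the part of the smooth muscle level in their values was not tested.

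By exact permutation of the difference in mean CPM, for which the smallest p that 4 against 4 hearts allow is 0.0286, the 7 genes gave two-sided p-values from 0.143 (Nos3) to 1.0 (Pde5a).

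Of 55 further genes that act around these 8, 50 were tested and 1 was a DEG (2%, against 1.14% of all tested genes). Arg1, Arg2, Gucy1b2, Nppc and Trpc6 had too few counts to be tested. The DEG was Gchfr, which encodes the feedback regulator of GTP cyclohydrolase, the first enzyme of tetrahydrobiopterin synthesis. Gchfr was at 5.49, 6.39, 7.87 and 6.95 CPM in Hv1 null hearts and 3.90, 3.12, 2.57 and 3.41 CPM in WT hearts, each Hv1 null heart being above each WT heart. The means were 6.68 ± 0.995 and 3.25 ± 0.557 CPM (SD, n = 4 each). It was higher in Hv1 null hearts by 1.04 on the log2 scale (SE 0.17, edgeR adjusted p = 0.0164). The adjusted p was 0.0518 without Hv1 null heart 3 and 0.0690 without WT heart 6, and Gchfr was a DEG in the other 13 of 15 alternatives. Among the 4 hearts with higher atrial markers the log2 fold change was 1.13 and among the 4 with lower ones 0.95, with Gchfr no longer a DEG in either. The other 11 tested genes that supply the substrate and the cofactor were not DEGs, and Qdpr, which recycles the cofactor and was the highest of them per length, had a log2 fold change of -0.04 (SE 0.11).

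Phosphodiesterases other than Pde5a gave 0 DEGs among 9 tested, and 1 of the 9, Pde11a, had an unadjusted edgeR p under 0.05, as did 11.0% of all tested genes. Pde11a, which hydrolyses both cGMP and cAMP, was at 0.991, 0.482, 0.912 and 1.53 CPM in Hv1 null hearts. In WT hearts it was at 1.85, 4.27, 2.14 and 4.83 CPM, all above the Hv1 null hearts. Its log2 fold change was -1.73 (SE 0.40, edgeR adjusted p = 0.0881, interval from -2.62 to -0.84), short of the threshold. It was a DEG in 3 of 15 alternatives: with no filter (adjusted p = 0.0391), with edgeR's likelihood ratio test (0.00381) and with DESeq2 (0.00147). It was not a DEG with voom, with either other scaling, with the CPM filter or with any heart left out. Pde11a was also higher in the hearts with lower atrial markers of each genotype, and was a DEG with the atrial marker level as a covariate (log2 fold change -1.45, edgeR adjusted p = 0.0254). Pde3a, the main cardiac enzyme inhibited by cGMP and the highest of the 9 per length, had a log2 fold change of 0.13 (SE 0.14).

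The remaining lists held no DEG. Of 11 partners and brakes of NO synthesis, 2 had an unadjusted edgeR p under 0.05 (11.0% of all tested genes did), among them the light chain Dynll1 that binds Nos1 (log2 fold change 0.40, SE 0.12, edgeR adjusted p = 0.173). Dynll1 was a DEG with DESeq2 alone (adjusted p = 0.0467). It lies on chromosome 5 within 10 Mb of Hvcn1, where the loss of Hvcn1 and other DNA that differs between the lines cannot be told apart. Cav1, the caveolin that holds Nos3 inactive and the highest of the list per length, had a log2 fold change of 0.06 (SE 0.11). The 3 tested genes of other cyclase subunits and redox partners included Cyb5r3, which reduces the haem of soluble guanylyl cyclase, at 0.10 (SE 0.08), and the S-nitrosoglutathione reductase Adh5 at 0.13 (SE 0.09). Of 8 tested kinases and substrates downstream of cGMP, phospholamban (Pln), the brake of the calcium pump, was at -0.02 (SE 0.13). Mrvi1, the kinase's partner at the IP3 receptor, had the largest fold change of those 8, at 0.33 (SE 0.25). The natriuretic peptides and their receptors, another source of cGMP, gave 0 DEGs among 7 tested and 0 with an unadjusted edgeR p under 0.05. The brain natriuretic peptide gene Nppb had a log2 fold change of -0.49 (SE 0.32) and the atrial one, Nppa, of -0.42 (SE 1.16), whose sign changed with the hearts and the test used.

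**Figure D5:**
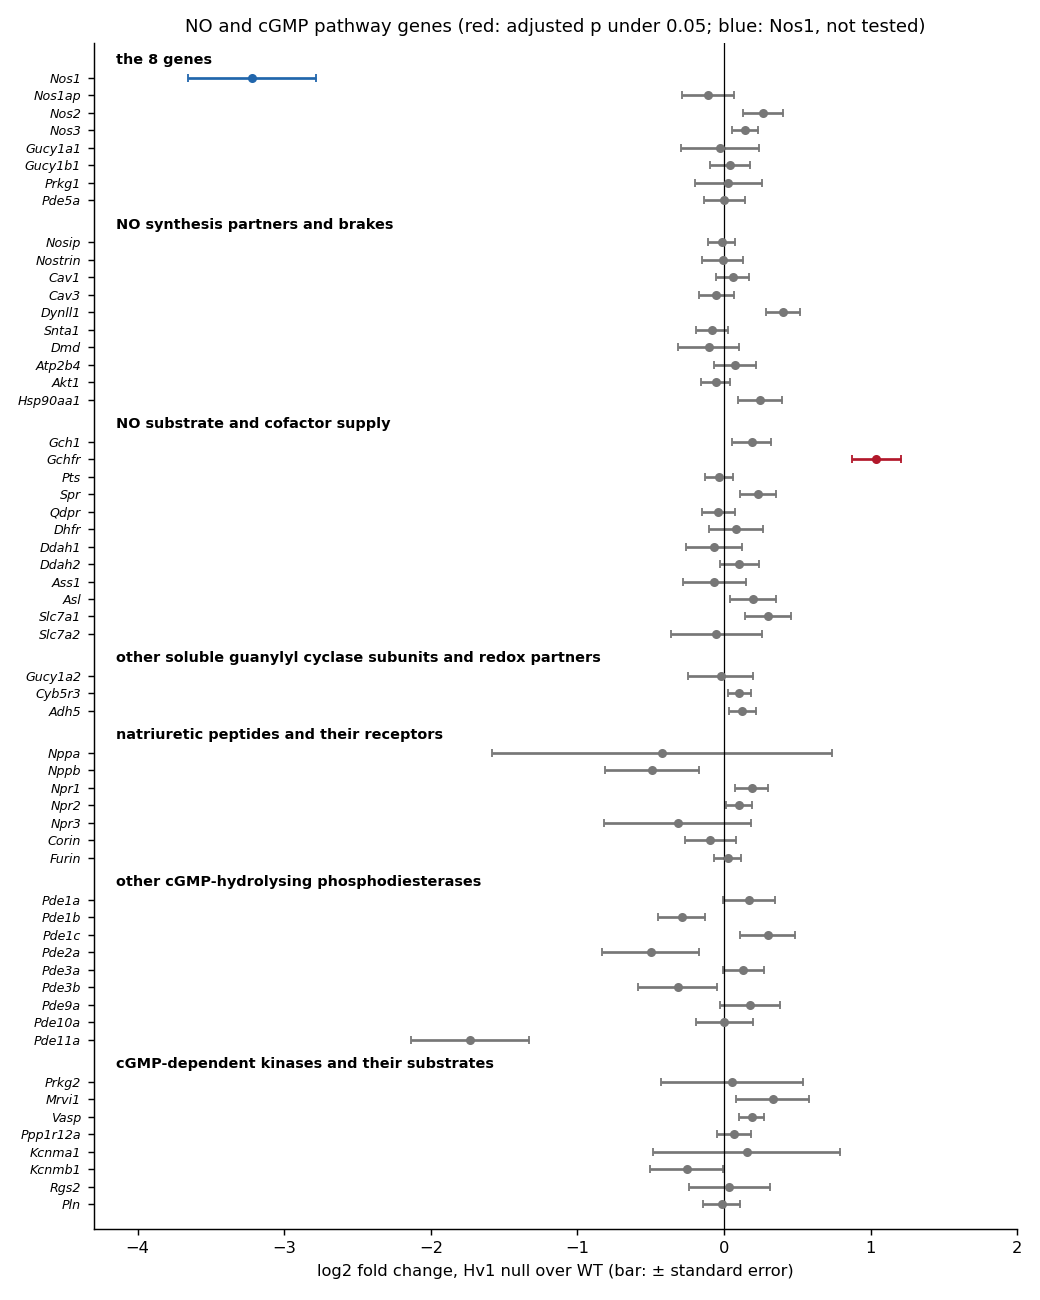
Log2 fold change (Hv1 null over WT) with its standard error for the 8 genes and 49 of the 50 tested genes of the wider lists, grouped by role. Gchfr, at 1.04, is the only one in red (adjusted p under 0.05), Pde11a lies at -1.73 with a bar of 0.40, and Nos1, in blue and not tested, at -3.22. The bar of Nos1 describes the fit and is not a test.

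The genes whose pattern over the 8 hearts was most like that of Nos1, by Pearson's r of log2 CPM, were Sc5d (0.981), Pim1 (0.965), Cacng6 (0.961), Golga7b (0.960) and Gm12381 (0.957). All hearts share the genotype contrast on which Nos1 was chosen, so the r values describe these hearts and were not tested. Sc5d encodes an enzyme of cholesterol synthesis, Pim1 a protein kinase, Cacng6 a calcium channel subunit and Gm12381 a long noncoding RNA. In each of the 5 the Hv1 null hearts lay below the WT hearts, and 2 of them, Golga7b and Gm12381, were DEGs. The likeness to Nos1 chose them for being low in Hv1 null hearts, where 3.45% of all tested genes were lower without overlap and 0.399% were lower DEGs, so nothing is read from these counts. Gm12381 was a DEG in each of 15 alternatives and Golga7b in 8, losing the call with unscaled libraries and without Hv1 null heart 1, 3 or 4 or WT heart 5, 7 or 8. Their log2 fold changes, from -0.37 for Sc5d to -1.58 for Golga7b, were smaller than that of Nos1. Hvcn1 ranked 45 in likeness, with r = 0.915.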

How the data were processed

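Poly-A RNA of 8 mouse hearts was sequenced by the authors in paired reads (a kit with strand selection), aligned with STAR and counted per Ensembl gene with featureCounts. The deposited values are raw, unnormalized counts of each gene in each heart. Tool versions and the strand setting are not given in the sources used here. The submitters' processing notes name mm10 and GRCm38, while the paper's text names a human build. The identifiers are mouse, and symbols and positions were taken from GENCODE M21 (GRCm38), where 38872 of 39056 were found.

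Hearts were grouped by their labels, and no batch is given. Genes were kept by filterByExpr (14796) and tested with edgeR 4.0.16 (quasi-likelihood, TMM scaling, R 4.3.3), with p-values adjusted by Benjamini and Hochberg over all tested genes and a threshold of 0.05. Single values were tested by two-sided exact permutation. P-values for the genotype weigh its difference against the spread among mice, 4 of each genotype. Those of the relations come from permutation over all 8 hearts. Log2 CPM used a prior count of 2. Alternatives were RLE or no scaling, no filter or a CPM above 1 in 4 hearts, edgeR's likelihood ratio test, DESeq2 1.42.0, limma 3.58.1 (voom), each heart left out, other gene lengths and windows. An atrial marker covariate and 2 sets of 4 hearts were added after seeing the data. Levels per length are CPM over kb of merged exons. Tests were checked on simulated counts. Python 3.11.15, pandas 2.3.3, numpy 2.4.6, scipy 1.17.1 and matplotlib 3.10.9 were used.

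The 8 genes, the wider lists and the marker lists were chosen with earlier results of these data known. Genes named are Hvcn1, the 8 genes, DEGs of the wider lists, per list the gene highest per length and that of largest fold change, the 5 genes most like Nos1, and DEGs within 10 Mb of Hvcn1. Others (Acta2, Chat, Npr3, Tesc, the untested genes of the lists and genes that overlap the 8) were named after their values were seen. Single results left out here still enter the counts of DEGs.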

Additional observations from a re-analysis of the deposited data

Results flagged for a closer look

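Of 62 groups of 4 hearts checked for a heart that stands apart from the other 3 by Dixon's criterion, 3 did, where chance gives about 1 in 20. For Pde5a it was Hv1 null heart 1, at 8.02 CPM against 5.66 to 5.88 CPM in the other Hv1 null hearts. For Dynll1 it was WT heart 5, at 25.8 CPM against 21.7 to 22.4 CPM. For Golga7b, a gene with a pattern like that of Nos1, it was Hv1 null heart 2, at 0.776 CPM against 0.450 to 0.494 CPM.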

How the results depend on the processing

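No paired analysis was possible because Hv1 null and WT hearts carry different numbers. The count of DEGs among the 7 genes other than Nos1 was 0 in every alternative. Over all genes, 169 DEGs became 376 with edgeR's likelihood ratio test, 466 with DESeq2, 71 in the 4 hearts with lower and 24 in the 4 with higher atrial markers, and 71 to 152 with 1 heart left out, the fewest without WT heart 6. DEGs of the wider lists were 1, and 2 with no filter, with the likelihood ratio test or with the atrial covariate, 3 with DESeq2, 0 in either set of 4 hearts, and 0 to 1 with 1 heart left out. Near Hvcn1 the 4 DEGs became 9 with DESeq2, 2 in the hearts with lower and 0 in those with higher atrial markers, and 2 to 3 with 1 heart left out. The causes of these differences were not tested. With the longest transcript as length, 4 of 8 genes kept their place in the order.

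Fold changes near 0 turned sign, and so did that of Nppa, which was -0.42 with an SE of 1.16. In the hearts with higher atrial markers this held for Nos1ap (0.0243), Nos3 (-0.0262), Pde5a (-0.182), Cav1 (-0.0347), Qdpr (0.0179) and Pln (0.0991), and in those with lower ones for Gucy1a1 (0.0973) and Nppa (1.27). It also held for Pde5a with a CPM filter (-0.000866), with voom (-0.0106) and as the difference of mean log2 CPM (-0.0120), for Nppa with voom (0.508), for Pln unscaled (0.0298) or with the covariate (0.0503), for Qdpr unscaled (0.00215), and for the r of Gucy1a1 with the pericyte markers on CPM (-0.170). With 1 heart left out, log2 fold changes ran from -0.181 to 0.232 for Gucy1a1, -0.0866 to 0.152 for Gucy1b1, -0.135 to 0.159 for Prkg1, -0.132 to 0.0539 for Pde5a, -0.0270 to 0.113 for Cav1, -0.119 to 0.0244 for Qdpr, -0.972 to 0.858 for Nppa and -0.0811 to 0.0476 for Pln. The log2 ratio of Gucy1a1 to Gucy1b1 ran from -0.180 to 0.138. Differences in mean CPM ran from -3.98 to 5.02 for Gucy1a1, -1.21 to 2.33 for Gucy1b1, -0.685 to 0.637 for Prkg1 and -0.554 to 0.231 for Pde5a. The r with markers ran from -0.234 to 0.506 for Nos3, -0.666 to 0.259 for Gucy1a1, -0.211 to 0.697 for Pde5a, -0.0704 to 0.474 for Prkg1 and -0.205 to 0.515 for Nos1ap. The causes were not tested. Nos1 rests on 1 to 10 counts per Hv1 null heart, which limits its ratio.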

Other observations

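Nppa, the atrial natriuretic peptide gene, followed the atrial markers in both genotypes. It was at 1850 to 4629 CPM in the 4 hearts with higher atrial markers and at 83.1 to 259 CPM in the other 4. Npr3, the natriuretic peptide clearance receptor, was at 17.97 to 60.99 CPM in the former and 13.6 to 17.4 CPM in the latter, with a narrow gap between them. These sets of hearts were formed from the data and the differences between them were not tested. The share of all tested genes that separate these sets is not given here, so nothing is read from the lack of overlap.

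Over the 8 hearts, 6 relations were computed: Gucy1a1 with Gucy1b1, and the others between a gene and markers of cells known to make it. Gucy1a1 with Gucy1b1 gave r = 0.575 (exact permutation p = 0.131, adjusted 0.785) and rho = 0.524 (exact permutation p = 0.197, adjusted 0.977). Without Hv1 null heart 4 and WT heart 7, the farthest from the median, r was 0.171. Nos3 with the endothelial markers gave r = 0.153 (exact permutation p = 0.709, adjusted 0.851) and rho = 0.190. The other 4, among them Nos1ap with cardiomyocyte and Prkg1 with smooth muscle markers, had r from 0.0685 to 0.432, with adjusted p-values of exact permutation from 0.851 to 0.870. None passed the adjustment, and with 1 heart left out the r of 5 of the 6 turned sign at least once. Within the 2 sets of 4 hearts there were too few hearts for a correlation.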
